A study of Drosophila melanogaster with 4 samples.

Results

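The genes described here, 8 in all, serve nerve cell function and were followed in the heads of male Drosophila melanogaster that had eaten sodium valproate (NaVP), an antiepileptic and mood-stabilising drug that also inhibits histone deacetylases. They are Csp, Rab3 and rogdi of the synaptic vesicle, the synaptic scaffold gene CASK, the potassium channel gene Sh, the histamine synthesis gene Hdc, the G protein gene Galphao and the neuropeptide gene Pdf. They were chosen by earlier results on the same log ratios, among neuronal genes that these arrays measured, and were found by symbol in the annotation of the array's probes, and a clone was kept if at least 3 of the 4 arrays listed a value for it. That left 9 clones of the 8 genes, out of 1030 clones so kept in all, 554 of which carry a single gene symbol (524 genes). The array holds 11 clones of these 8 genes. The other two are a CASK clone listed on no array and an Sh clone listed on array 3 alone.

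A chemical synapse passes a signal when a vesicle loaded with transmitter fuses with the presynaptic membrane. Vesicle proteins prepare and repeat that step, scaffold proteins hold the release site together, potassium channels end the electrical impulse that triggers it, and G proteins relay the slower signals of neuropeptides and amine transmitters. The fly head holds the brain and the compound eyes, whose photoreceptors use histamine as their transmitter.

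Treated and control flies were unmated Oregon-R wild-type males, 10 to 11 days old, kept at 30 per vial. Treated flies received 0.33 mg/ml NaVP in the food for 3 days and control flies stayed on normal food. Each of 4 two-colour cDNA arrays set RNA from a pool of treated heads against RNA from a pool of control heads, and the series' design text calls the 4 sets biological replicates. The Cy5 dye marked NaVP RNA on arrays 1 and 2. The dyes were exchanged on arrays 3 and 4, called the swap arrays, where NaVP RNA carried Cy3. Heads were pooled whole, so fewer cells of a type and less RNA per cell cannot be told apart.

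The deposited values are log ratios, taken as log2, one per spot. Their log base, their direction and the treatment of the swap arrays are not stated, so every fold below depends on base 2. All values below are differences on the log2 scale after subtraction of the array's median, which was 1.01, 1.05, 0.54 and 0.24 on arrays 1 to 4. Each result is given under 2 readings. With the swap arrays turned, the deposited values are Cy5 over Cy3 and the sign of arrays 3 and 4 is changed. With the swap arrays as deposited, the values already are NaVP over normal food. Cy5 is channel 1 in the labels of all 4 arrays, which is the order that turning assumes, but no source states the order for the values and the reading is not settled. Both readings take arrays 1 and 2 as NaVP over normal food, and the opposite assumption would exchange "above 0" and "below 0" everywhere.

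The arrays differed in how much they measured. Spots with a value made up 18.9%, 4.78%, 13.6% and 11.6% of the 27648 spots on arrays 1 to 4. Over the kept clones, Pearson's r between arrays of the same dye orientation was 0.55 (arrays 1 and 2) and 0.39 (arrays 3 and 4), and between arrays of opposite orientation it ran from -0.14 to 0.34 as deposited, above 0 for 3 of 4 pairs. No intensities come with the ratios, so the signal behind a value and the level of a transcript are unknown. Of the marker genes of head cell types, the neuronal list (8 genes, elav and nSyb among them) has 1 named clone, which no array listed. Of 6 photoreceptor markers with a clone, 4 were kept (trpl, Arr1, inaD and chp), and of 6 glial markers 1 was (Gs2). The muscle list kept 2 of 5 (Act88F and Mlc2) and the fat body list 2 of 7 (Obp99b and apolpp).

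None of the 9 clones passed the fit across all kept clones in either reading. With the swap arrays turned, 0 of the 9 had a limma Benjamini-Hochberg adjusted p under 0.05, where 0.0971% of the 1030 clones did, and their adjusted p ran from 0.749 to 0.998 (0 of 9 at an unadjusted p under 0.05, against 6.89% of all clones). With the swap arrays as deposited, 0 of 9 passed, where 0.777% of all clones did, and the adjusted p ran from 0.201 to 0.990 (3 of 9 at an unadjusted p under 0.05, against 14.1%). Without centring, which leaves the offset of each array in its values, 5 of 9 passed as deposited, where 72.3% of all clones did. A one-class SAM-type statistic called 0 of 9 in each reading, but its share over all clones is not given here. The genes were selected on these same ratios, so the counts are a description, as are all means below, and nothing is read from them. An exact sign test on 4 arrays cannot go below p = 0.125, and on 3 arrays below p = 0.25. The smallest mean among clones that did pass was 0.79 in size as deposited, and the 1 clone that passed with the swap arrays turned had 1.62. Every mean of the 9 clones was smaller, the largest being 0.38 in size.

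**Figure D1:**
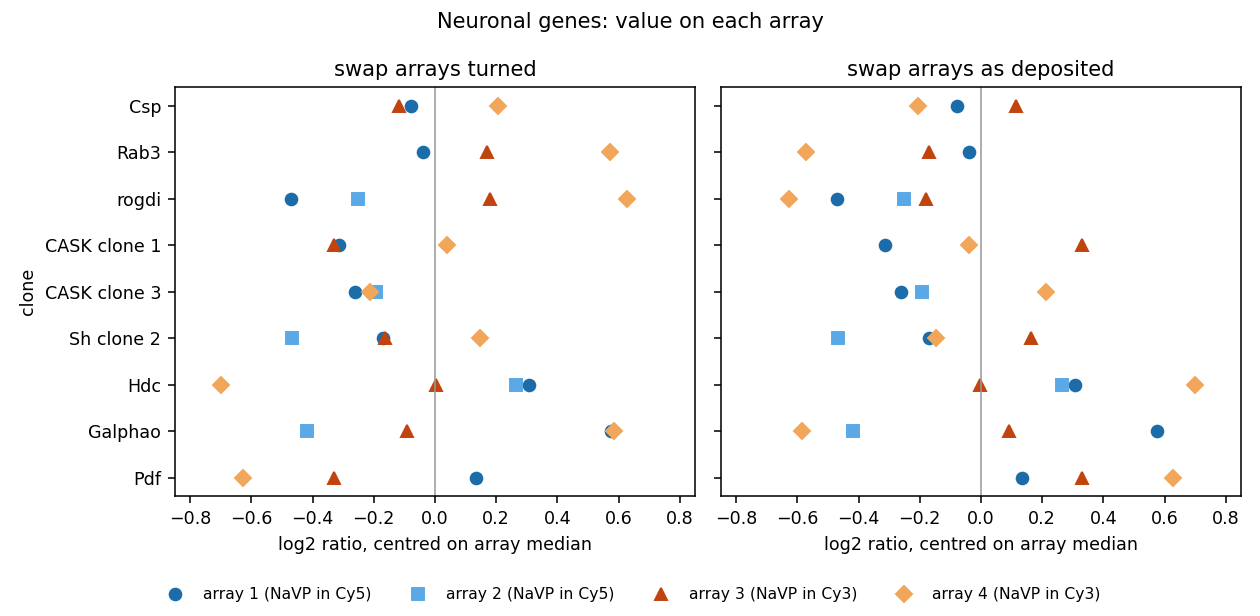
Log2 ratio of each kept clone on each array after subtraction of the array median, with the swap arrays turned (left) and with the deposited signs (right); each symbol is the mean of a clone's paired spots on 1 array. The third CASK clone keeps its 3 arrays between -0.26 and -0.19 with the swap arrays turned, and Pdf and Hdc reach 0.63 and 0.70 on array 4 as deposited.

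Of the vesicle genes, Csp (NCBI gene 40459) encodes cysteine string protein, a co-chaperone on synaptic vesicles that keeps the fusion machinery folded. It was listed on arrays 1, 3 and 4, where the values as deposited were -0.08, 0.12 and -0.21. The values lay on both sides of 0 under either reading and none was far from the array median. Its mean was 0.0039 ± 0.18 in the turned reading and -0.06 ± 0.16 as deposited (SD, n = 3 for each).

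Rab3 (NCBI gene 36127) encodes the small GTPase that rides on synaptic vesicles and, in the fly, governs how release sites are filled with active zone proteins. Its values as deposited were -0.04, -0.17 and -0.57 on arrays 1, 3 and 4. All 3 lay below 0, with array 4 far lower than the other two, so that only 8.18% of the clones listed on array 4 lay lower. As deposited the mean was -0.26 ± 0.28 (SD, n = 3), a 1.20-fold lower ratio. With the swap arrays turned it was 0.23 ± 0.31 (SD, n = 3), 1.18-fold higher, with array 1 on the opposite side of 0 from arrays 3 and 4. The sign of Rab3 rests on the reading and its size on array 4, without which the mean was -0.11 as deposited and 0.07 with the signs turned. Block centring gave -0.09 as deposited.

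The gene rogdi (NCBI gene 39917) is named for a fly memory mutant, and its human counterpart belongs to a complex that helps assemble the proton pump of vesicles. It was listed on all 4 arrays, at -0.47, -0.25, -0.18 and -0.63 as deposited. It was the lowest of the 9 clones on arrays 1, 3 and 4, and below 0 on every array. Its mean as deposited was -0.38 ± 0.20 (SD, n = 4), 1.30-fold lower, and 3.30% of all kept clones had a lower mean. In the turned reading, arrays 1 and 2 stayed below 0 and arrays 3 and 4 came to lie above it, for a mean of 0.02 ± 0.48 (SD, n = 4). In a fit with dye orientation as a second coefficient, rogdi passed as lower in the reading as deposited (-0.38, limma adjusted p = 0.0416), where 5.73% of all clones passed. It was the only clone of the 9 to do so, and in the turned reading 0 of 9 passed in that fit against 3.11% of all clones. In that reading, this mean of 4 values would be an offset that keeps its sign when the dyes are exchanged. The source of such an offset was not tested. Block centring left rogdi at -0.15 as deposited (limma adjusted p = 0.604).

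CASK (NCBI gene 42567) encodes a membrane-associated scaffold protein with a kinase-like domain that binds adhesion molecules and ion channels at the synapse. It is the only gene of the 8 with more than 1 kept clone. The first clone was at -0.31, 0.33 and -0.04 on arrays 1, 3 and 4 as deposited. The third clone was at -0.26, -0.19 and 0.21 on arrays 1, 2 and 4. Arrays 1 and 2 thus gave values below 0 for CASK, while on the swap arrays 2 of 3 values lay above it.

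In the turned reading the third CASK clone lay on the same side on its 3 arrays, with a mean of -0.22 ± 0.035 (SD, n = 3), 1.17-fold lower. Its SD was the smallest of the 9 clones, where the median SD of all kept clones was 0.25. The first clone had -0.20 ± 0.21 (SD, n = 3), 1.15-fold lower, with array 4 at 0.04. The clones share arrays 1 and 4, on which they differed by 0.05 and 0.25. As deposited their means were -0.0071 ± 0.32 for the first and -0.08 ± 0.26 for the third (SD, n = 3 for each), and block centring turned both above 0 (0.11 and 0.06).

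**Figure D2:**
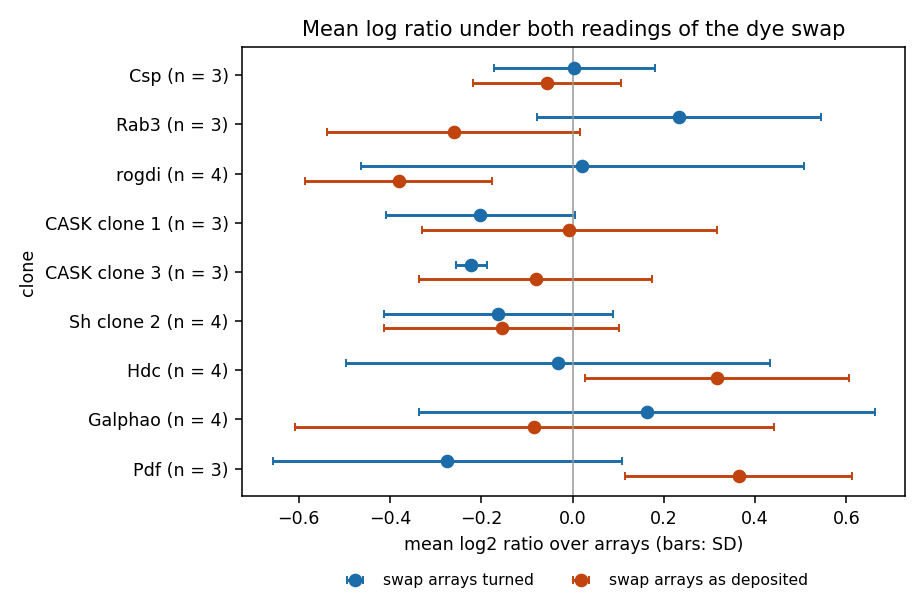
Mean log2 ratio of each kept clone over the arrays that listed it, with the SD as bars, for the turned reading (blue) and the deposited signs (red); n is the number of arrays. The means of Csp, Rab3, rogdi, Hdc, Galphao and Pdf exchange sides between the readings, the bars of most clones cross 0, and the third CASK clone with the swap arrays turned has the narrowest bar (SD 0.035).

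Sh (NCBI gene 32780), the Shaker gene, encodes a voltage-gated potassium channel that carries a fast inactivating current and shortens the nerve impulse. Its second clone was listed on all 4 arrays, at -0.17, -0.47, 0.16 and -0.15 as deposited. Arrays 1, 2 and 4 lay below 0 and array 3 above it. The means were near each other in the readings, -0.16 ± 0.25 in the turned reading and -0.16 ± 0.26 as deposited (SD, n = 4 for each), and the values of the swap arrays, 0.16 and -0.15, nearly cancelled. Block centring left -0.17 in the turned reading and 0.0074 as deposited, and without array 2, the lowest, the means were -0.06 and -0.05. The first Sh clone, just outside the limit on arrays, had a single value of 0.29 on array 3 as deposited, above 0 like the second clone there.

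Hdc (NCBI gene 36076) encodes histidine decarboxylase, which makes the histamine that photoreceptors release. Its values as deposited were 0.31, 0.26, -0.0035 and 0.70 on arrays 1 to 4. Arrays 1, 2 and 4 lay above 0 and array 3 next to it, and on array 4 Hdc was the highest of the 9 clones, above 99.1% of the clones listed there. The mean was 0.32 ± 0.29 as deposited (SD, n = 4), 1.25-fold higher, and -0.03 ± 0.46 with the swap arrays turned (SD, n = 4). In the turned reading array 4, at -0.70, set the sign: without it the mean was 0.19, and 0.19 as deposited too. Block centring gave Hdc 0.16 as deposited. The 4 photoreceptor markers had a median of 0.23 as deposited and -0.03 with the swap arrays turned, and their part in the value of Hdc was not tested.

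Galphao (NCBI gene 36104) encodes the alpha subunit of Go, a G protein abundant in nervous tissue that acts below receptors for peptides and amines. It had the widest spread of the 9 clones, at 0.58, -0.42, 0.09 and -0.58 on arrays 1 to 4 as deposited. Arrays of the same dye orientation disagreed: arrays 1 and 2 differed by 0.99 and arrays 3 and 4 by 0.68, where the medians over the 453 clones on all 4 arrays were 0.23 and 0.21. The means were 0.16 ± 0.50 in the turned reading and -0.08 ± 0.53 as deposited (SD, n = 4 for each). Leaving out each array in turn moved them between 0.02 and 0.36 and between -0.30 and 0.08.

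The disagreement lay partly between the paired spots of the clone. On array 4 they read -1.48 and 0.31 after centring, a difference of 1.79 that 0.501% of spot pairs on that array exceeded. On array 3 they read -0.17 and 0.35. The first spot of each pair alone gave Galphao means of 0.40 in the turned reading and -0.42 as deposited. The second spot alone gave -0.08 and 0.24, so that the sign of Galphao turned with the spot in both readings.

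Other spot pairs stood apart less. The spots of rogdi differed by 0.79 on array 4 and those of Hdc by 0.53 on array 2, which 2.76% and 7.27% of the pairs on those arrays exceeded. The first spot alone gave rogdi a mean of -0.29 as deposited, and the second -0.49. For Hdc the same means were 0.39 and 0.23. Both kept their side of 0 as deposited whichever spot was used. In the turned reading both changed sides, rogdi from -0.06 with the first spot to 0.10 with the second and Hdc from 0.0038 to -0.07. For Pdf, Csp, Rab3, CASK and the second Sh clone no pair differed by more than 0.201.

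**Figure D3:**
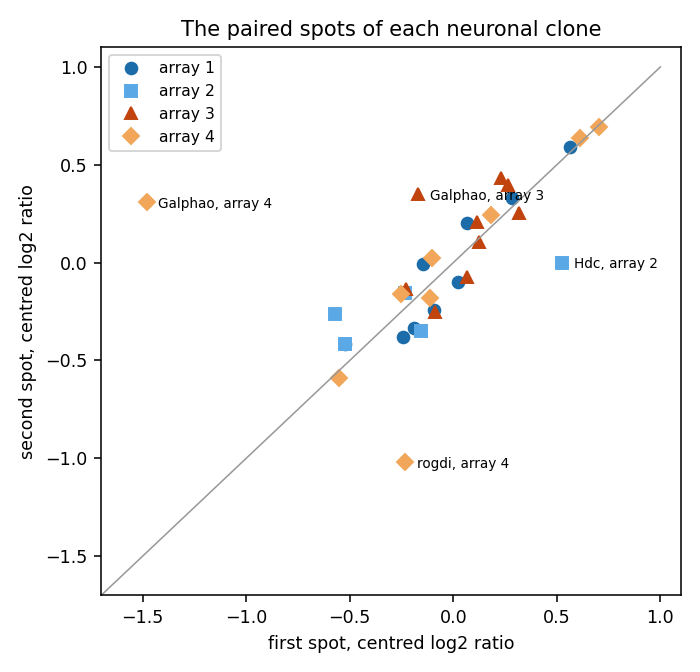
Centred log2 ratio, as deposited, of the first against the second spot of each pair on each array, for all clones of the 8 genes with a value, the first Sh clone included; the line marks equal values. Most pairs lie near the line, and the named points are the 4 pairs with the widest difference, led by Galphao on array 4 (1.79).

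Pdf (NCBI gene 43193) encodes pigment-dispersing factor, the neuropeptide by which a small set of clock neurons keep the daily rhythm of other clock cells together. Its values as deposited were 0.13, 0.33 and 0.63 on arrays 1, 3 and 4. All 3 lay above 0, and on array 4 Pdf stood above 97.8% of the clones listed there. As deposited the mean was 0.36 ± 0.25 (SD, n = 3), 1.29-fold higher, the highest of the 9 clones. With the swap arrays turned it was -0.27 ± 0.38 (SD, n = 3), 1.21-fold lower, the lowest of the 9, with array 1 at 0.13 against -0.33 and -0.63 on arrays 3 and 4. Without array 4 the mean was 0.23 as deposited and -0.10 turned, and without array 1 it was 0.48 and -0.48.

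Pdf, Csp, Rab3 and the first CASK clone lack array 2, and the third CASK clone lacks array 3. For these 5 clones a dye orientation rests on a single array, and the plain mean mixes dye and treatment in either reading. Fitted with dye orientation as a second coefficient, which weighs the orientations alike, the mean of Pdf was -0.17 in the turned reading and 0.31 as deposited. That of Rab3 was 0.17 and -0.21, that of the first CASK clone -0.23 and -0.08, that of the third CASK clone -0.22 and -0.0075, and that of Csp -0.02 and -0.06. Csp changed sign in the turned reading by this step.

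Among themselves the 9 clones did not share a direction. In the turned reading, 4 had a mean above 0 and 5 below, with a median of -0.03, where 47.6% of all kept clones lay above 0 (median -0.0094). As deposited, 2 lay above 0 and 7 below, with a median of -0.08, where 60.0% of all clones lay above 0 (median 0.05). The median size of the mean, whatever its sign, was 0.16 in each reading for the 9 clones and 0.13 and 0.15 for all clones. Of the 4 clones with 4 values, 0 kept 1 sign on all arrays with the swap arrays turned (17.4% of all such clones did) and 1, rogdi, did as deposited (26.3%). Of the 5 clones with 3 values, 1 did in the turned reading, the third CASK clone (28.1% of all such clones), and 2 as deposited, Rab3 and Pdf (34.0%).

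By array, as deposited, the clones ranged from -0.47 (rogdi) to 0.58 (Galphao) on array 1, from -0.47 (Sh) to 0.26 (Hdc) on array 2, from -0.18 (rogdi) to 0.33 (Pdf) on array 3 and from -0.63 (rogdi) to 0.70 (Hdc) on array 4. Galphao and Hdc lie in the same assumed block of spots, and whether they share an offset of position was not tested. Centring by block lowered both by 0.15 as deposited, as it must for clones of a shared block with 4 values.

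**Figure D4:**
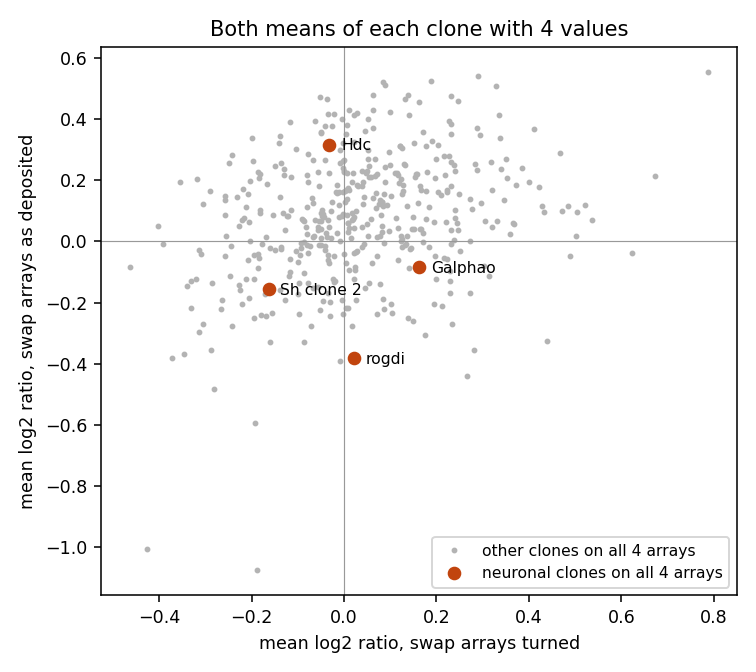
Mean log2 ratio with the swap arrays turned (x axis) against the mean as deposited (y axis) for the 453 clones with a value on all 4 arrays; red points are the 4 neuronal clones among them. Hdc (0.32) and rogdi (-0.38) lie near 0 on the x axis and away from it on the y axis, while Sh (-0.16 on each axis) lies equally far from both.

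For each of the 4 clones with 4 values, the clone with the most similar values as deposited was sought among all clones with a single symbol and 4 values, by the root mean square difference over the 4 arrays. It was Ank for rogdi (0.20), Vha26 for Sh (0.15), CG11586 for Hdc (0.13) and CG7920 for Galphao (0.20). With 4 values per clone this is a description of these arrays only.

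The 9 lists of neuronal genes hold 232 genes, of which 109 have a named clone, 53 were listed on at least 1 array and 21 were kept (24 clones). The kept genes were 19.3% of the list genes with a clone, and 7.73% of all 6775 named genes with a clone were kept. The 21 kept genes include the 8 described here, which were chosen among genes these arrays measured, and 13 others. The lists were also drawn up with earlier results known, so the shares cannot be compared. The vesicle list kept 4 of 15 genes with a clone (Csp, Rab3, rogdi and Sap47), the scaffold and adhesion list 2 of 10 (CASK and dlg1) and the potassium channel list 1 of 12 (Sh). The transmitter synthesis and transport list kept 5 of 15 (Hdc, Gad1, t, dmGlut and Pu), the receptor list 2 of 18 (GluClalpha and DopEcR), the G protein and cAMP list 3 of 10 (Galphao, Galphaq and Galphas) and the neuropeptide list 4 of 16 (Pdf, AstC, Nplp1 and Pal2). Of 6 sodium and calcium channel genes and 8 clock genes with a clone, none was kept. The 1 clock gene listed on any array was Slob, which binds the potassium channel Slowpoke.

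**Figure D5:**
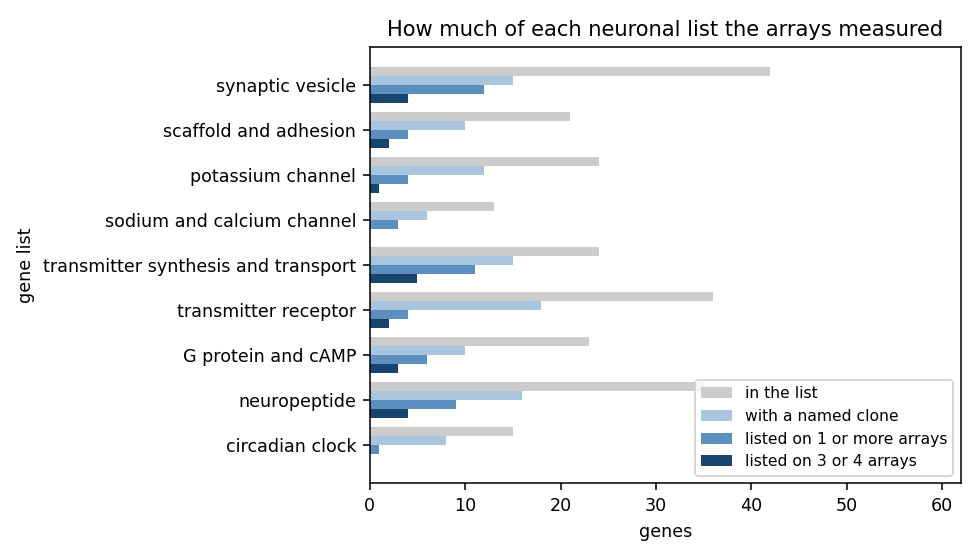
Number of genes in each neuronal list, of those with a named clone on the array, of those listed on at least 1 array and of those kept (listed on 3 or 4 arrays). The kept genes number 5 at most, and the channel list for sodium and calcium and the clock list have none.

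Of the 24 list clones, 0 passed with the swap arrays turned, where 0.0971% of all clones did. As deposited, 0 passed as higher (0% of all clones did) and 2 as lower (0.777%), both clones of dmGlut, a glutamate transporter gene (-1.32 ± 0.41 and -1.40 ± 0.81, SD, n = 3 for each; limma adjusted p = 0.00192 and 0.0155). In the turned reading the same clones had 0.17 ± 1.66 and 0.04 ± 1.89 (SD, n = 3 for each; limma adjusted p = 0.967 and 0.994). The 15 clones outside the 8 genes had a median of -0.05 with the swap arrays turned (5 above 0) and 0.01 as deposited (8 above 0). None of the others passed. The dmGlut clones have 3 values each, so for them too a dye orientation rests on a single array and the plain mean mixes dye and treatment.

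Other G protein alpha subunits were measured beside Galphao. A clone of Galphaq, the subunit that starts the light response of photoreceptors, had -0.31 ± 0.33 in the turned reading and -0.36 ± 0.26 as deposited (SD, n = 3 for each; limma adjusted p = 0.737 and 0.322). A second Galphaq clone had 0.02 ± 0.17 and -0.04 ± 0.16 (SD, n = 4 for each). Galphas, the subunit that stimulates adenylyl cyclase, had 0.13 ± 0.37 and -0.32 ± 0.13 (SD, n = 3 for each; limma adjusted p = 0.892 and 0.351).

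Of the transmitter genes, GluClalpha, a glutamate-gated chloride channel gene, had -0.25 ± 0.14 in the turned reading and 0.18 ± 0.25 as deposited (SD, n = 3 for each; limma adjusted p = 0.743 and 0.626). The gene t, whose enzyme (tan) frees histamine from its conjugate in photoreceptors, had -0.17 ± 0.24 and 0.19 ± 0.22 (SD, n = 4 for each; limma adjusted p = 0.796 and 0.533). Pal2, of the enzymes that amidate neuropeptides, had -0.30 ± 0.62 and 0.19 ± 0.68 (SD, n = 3 for each; limma adjusted p = 0.749 and 0.726).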

How the data were processed

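The authors quantified the scanned slides in GenePix Pro, according to the design text, normalised the ratios in Acuity and kept spots that passed limits on saturation, flags, regression and signal-to-noise. The deposited log2 ratios are the result. Base 2 is an assumption, since the authors state no base. Both adjacent spots of a clone were averaged. Symbols of an old platform annotation were updated by NCBI gene ID to assembly Release 6 names. No clone coordinates or sequences were used here. Arrays were centred on the median over all listed clones. Tests used limma 3.58.1 under R 4.3.3 (intercept only, two-sided) over 1030 clones with at least 3 values, Benjamini-Hochberg adjusted, threshold 0.05. The fit was also run on simulated clones with a common spread and no dye effect. The real clones differ in spread, so that run does not show what the fit can detect here. The p-values of the limma fit draw on 4 arrays and a variance shared across clones. Named besides the 8 genes are the list clones that passed, filled up to 4 clones in each reading by smallest p. The members and lists were chosen with earlier results of these data known. Alternatives changed centring, arrays needed, spots used, model, test and the arrays kept; the 2 single-spot alternatives were added after seeing the data.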

Additional observations from a re-analysis of the deposited data

How the results depend on the processing

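No alternative called any of the 9 clones with the swap arrays turned, among no centring, block centring, at least 2 arrays, all 4 arrays, discordant spot pairs left out, both spots listed, either spot alone, the SAM-type statistic, the dye coefficient and each array left out (0 to 0 without an array). All 4 arrays listed 4 of the 9 clones, and 8, all but Galphao, were left without discordant pairs. With the swap arrays turned, 0% of all clones passed without centring and 3.11% with the dye coefficient. For the other alternatives the share of all clones is not given in either reading, and nothing is read from their counts. As deposited, the count of called clones also stayed at 0, again 0 to 0 without an array, except under 2 of these alternatives. Without centring 5 of 9 passed as higher (Galphao, Hdc, Pdf, the second Sh clone and the third CASK clone), where 72.3% of all clones passed; that setting leaves each array's offset in the ratio. With the dye coefficient 1 passed, rogdi. Without centring, 10 of 18 means changed sign and 11 moved by more than their SD. Block centring moved 2 of 18, and the remaining alternatives 0. Leaving out 1 array cannot move a mean by more than its SD, so those counts could only be 0. Without discordant pairs, Hdc lost array 2, rogdi lost array 4 and the other means left were unchanged, so the same holds there. The dye coefficient keeps the means of clones with 4 values, and its shift for clones with 3 values cannot exceed their SD either. At least 2 arrays, all 4 arrays and both spots listed use the same values for the clones they cover, so their means could not move. These counts of 0 therefore say nothing about stability. Leaving out array 4 turned the sign of 6 of 18 means: in the turned reading Hdc (0.19), rogdi (-0.18) and Csp (-0.10), and as deposited Galphao (0.08), Csp (0.02) and the first CASK clone (0.0082). The ratio of each array already pairs a treated pool with its control pool, and no further pairing was possible because the samples form a single group. The files give no intensities, so signal over background could not be weighed.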

Other observations

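In the neuronal lists, 7 genes had a best clone on exactly 2 arrays and entered no comparison. As deposited and after centring, Ilp2, an insulin-like peptide gene of the brain's secretory cells, had 0.13 on array 1 and 0.14 on array 4. Pka-R1, a regulatory subunit of protein kinase A, had -0.35 on array 1 and -0.38 on array 3. The adhesion and polarity scaffold gene scrib had -0.25 and -0.11 on arrays 3 and 4. The gene e, whose enzyme (ebony) conjugates histamine in glia, had -0.33 on array 1 and 0.09 on array 4. Ca-beta, a calcium channel subunit gene, had -0.87 on array 1 and 0.24 on array 3. The neuropeptide gene Capa had -0.21 and 0.12 on arrays 1 and 4, and the choline transporter gene ChT had 0.11 and -0.53 on arrays 3 and 4. For Ilp2 and Pka-R1 the arrays of opposite dye orientation gave nearly equal values as deposited, which become opposite values with the swap arrays turned. A further 25 genes were listed on a single array.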
